A study of Mus musculus with 4 samples.

Results

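The stria vascularis (SV) is the layered epithelium of the cochlear lateral wall that generates the endocochlear potential, and 10 of its antioxidant genes are described here: the glutathione peroxidases Gpx1, Gpx2, Gpx3 and Gpx4, the superoxide dismutases Sod1 and Sod2, catalase (Cat) and the metallothioneins Mt1, Mt2 and Mt3. They were taken by symbol, and all 10 were found among the 27998 genes listed for the whole-cell libraries and among the 48816 genes listed for the nucleus library. Mice of the CBA/J strain were taken at postnatal day 30, and the study profiled their SV on the 10x Genomics Chromium platform, with 3 captures of whole cells and 1 capture of nuclei, each from pooled mice. The labels name no engineered allele and no treatment. Whole cells were released in trypsin for 7 min at 37 °C and nuclei were isolated over 25 min at 4 °C, so the type of preparation and the capture cannot be told apart in any comparison of cells with nuclei.

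Superoxide leaking from respiration is converted by superoxide dismutases to hydrogen peroxide, which catalase and the glutathione peroxidases then remove, the latter at the cost of glutathione. Metallothioneins are small cysteine-rich proteins that bind zinc and copper and react with oxidants. The SV is rich in mitochondria and in sodium and potassium pumping, above all in its marginal cells, and oxidative damage to it has long been discussed for noise, drug and age-related hearing loss. The question put to these libraries was which of the 10 genes each SV cell type uses, and whether each capture and the nuclei give the same order.

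The 3 whole-cell captures held 392, 1358 and 1580 barcodes and 2811309, 8113494 and 8340882 unique molecular identifiers (UMIs, one per captured transcript molecule), and the nucleus capture held 11057 barcodes and 22332501 UMIs. After quality filters 377, 1314 and 1461 cells and 9723 nuclei were clustered without the 10 genes, and clusters were named from fixed marker genes. Captures 1, 2 and 3 gave 18, 72 and 45 marginal cells, 133, 431 and 394 intermediate cells, 10, 34 and 22 basal cells and, of the spindle/root kind, 4, 13 and 11 cells. The nuclei gave 2584 marginal, 1472 intermediate, 655 basal and 205 spindle/root nuclei. Between 54.4% and 57.8% of cells in a capture and 38.9% of nuclei passed no naming rule and stayed unnamed, and names were rebuilt here, so shares of types may differ from those of the study. The capture pairs shared 0 to 6 barcodes, and each shared 7 to 32 with the nuclei. The 4 spindle/root cells of capture 1 fell under the minimum of 5 cells per sum and entered no fit.

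Clusters carried the markers of their names, with reservations for marginal cells and for basal and spindle/root cells and nuclei. Summed levels of the type's own markers, in UMIs per 1000000 UMIs of the type (CPM), were 6710 to 7430 in marginal, 24000 to 32500 in intermediate, 5580 to 5990 in basal and 7340 to 9240 in spindle/root cells, and no marginal, basal or spindle/root marker was at 0 in its own type in any capture, while 1 or 2 of the 13 intermediate markers were at 0 in intermediate cells. Marginal cells also carried 6890 to 11400 CPM of the intermediate markers, of which 2 were at 0. Basal cells carried 5010, 3580 and 2340 CPM of the intermediate markers in captures 1, 2 and 3. Basal nuclei carried 1500 CPM of basal markers beside 5760 CPM of intermediate and 2560 CPM of marginal markers, so values in basal nuclei are given under that name with this limit. Spindle/root cells carried 1310 to 2190 CPM of marginal and 733 to 1670 CPM of basal markers. Their nuclei carried 2770 CPM of intermediate and 2430 CPM of marginal markers beside 4960 CPM of their own. Mitochondrially encoded genes took 25.2% to 27.9% of UMIs in marginal, 32.7% to 37.7% in intermediate, 15.8% to 18.7% in basal and 12.5% to 12.9% in spindle/root cells. All CPM values below were scaled to the UMIs of the type in a capture, mitochondrial UMIs included. These libraries count 3′ ends, so a level is molecules and is not divided by transcript length.

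Each SV type had its own mix of the 10 genes. In marginal cells Mt3 took 31.3% ± 1.76 (SD, n = 3 captures) of the UMIs of the 10 genes, followed by Gpx3 with 24.6% ± 1.15 and Gpx4 with 21.2% ± 2.92. In intermediate cells Gpx4 led with 35.7% ± 4.2 and Mt1 followed with 27.6% ± 3.73, while Mt2 took 6.87% ± 2.29. Gpx4 took 47.2% ± 7.21 in basal cells, where Mt1 came next with 17.6% ± 5.97. Spindle/root cells spread their UMIs over Gpx4 with 34.8% ± 7.45, Gpx3 with 22.0% ± 3.6 and Gpx2 with 20.4% ± 11.7 (n = 2 captures). Summed over the 10 genes, marginal cells held 7950 CPM ± 483, against 3450 CPM ± 248 in intermediate and 2990 CPM ± 84.5 in basal cells. The lowest marginal capture lay above the highest intermediate and basal captures for this sum, while spindle/root captures 2 and 3, at 4300 and 7500 CPM, lay between. The gap spans 7530 CPM, the lowest marginal, and 3710 CPM, the highest intermediate value.

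**Figure D1:**
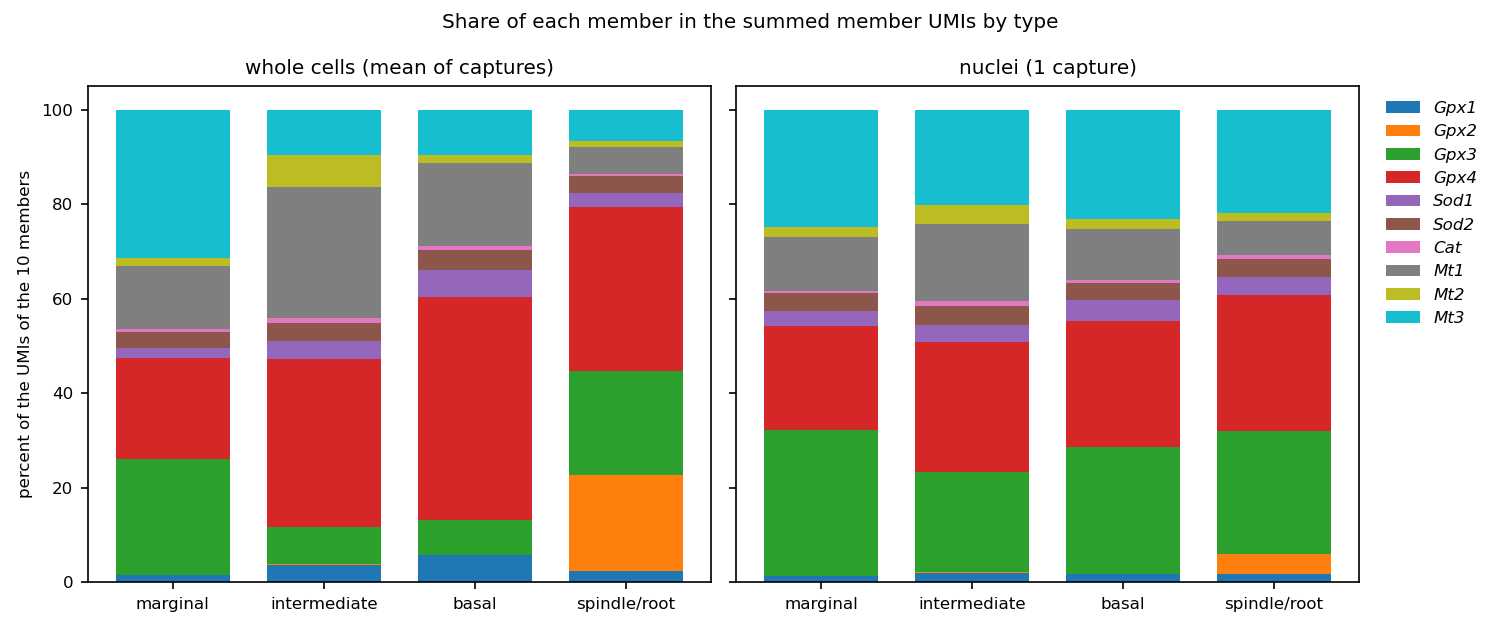
Share of each gene (colour) in the summed UMIs of the 10 genes, in percent, by SV type, for whole cells (left, mean of the captures) and nuclei (right, 1 capture). Mt3 and Gpx3 fill most of the marginal column in whole cells, and the 4 nucleus columns differ less from each other than the 4 cell columns.

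Differences between types were tested with edgeR on UMIs summed per capture and type, with the capture as a term, in a fit over 11 sums and 6482 genes that included all 10 genes of interest. Gpx2 passed the filter on low counts through the spindle/root sums alone. It is therefore left out of the counts that follow. Against the mean of the other 3 types, 5 of the other 9 genes were higher and 0 lower in marginal cells, beside 29.8% of all genes called in either direction. In intermediate cells 3 were higher and 2 lower, beside 35.6% of all genes. Basal cells had 0 higher and 5 lower, beside 29.9%, and spindle/root cells 1 higher and 2 lower, beside 20.5%. The median log2 fold change of the 9 genes was 0.80 in marginal and −0.49 in basal cells, where the medians of all genes were 0.08 and −0.03. Because the spindle/root sums turned out to hold a pair of unlike subsets, described further below, the type-against-type contrasts carry most of what follows. Contrasts with spindle/root cells share that limit.

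**Figure D2:**
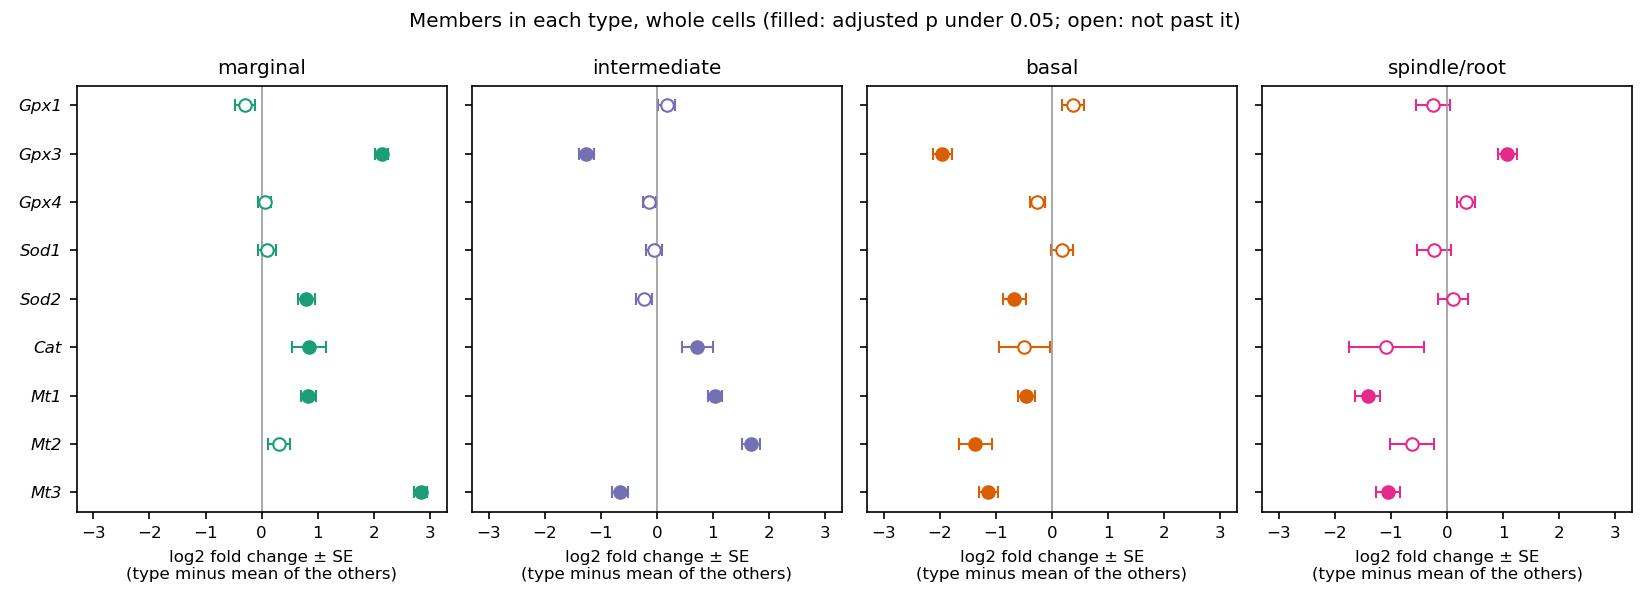
Log2 fold change ± SE of 9 of the 10 genes in each SV type against the mean of the other 3 types in whole cells (edgeR, 11 sums). Filled points passed an adjusted p of 0.05 and open points did not. Gpx2 is not drawn because its fitted values rest on types with 0 to 10 UMIs. Mt3 and Gpx3 stand to the far right in marginal cells, and Mt1 and Mt2 stand to the right in intermediate cells.

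Among the metallothioneins, Mt3 was higher in marginal and Mt2 in intermediate cells, while Mt1 did not differ detectably between them. All 3 genes lie on the plus strand of mouse chromosome 8 in GRCm38, Mt3 at chr8:94152607-94154146, Mt2 at chr8:94172664-94173568 and Mt1 at chr8:94179082-94180327. Mt1 and Mt2 are the widely expressed, metal- and stress-inducible members, and Mt3 is the member best known from the brain. Their spliced coding sequences are printed from the GRCm38 genome and GENCODE vM21 annotation to show what sets them apart, with each cysteine codon, TGC or TGT in frame, in capitals.
Mt1: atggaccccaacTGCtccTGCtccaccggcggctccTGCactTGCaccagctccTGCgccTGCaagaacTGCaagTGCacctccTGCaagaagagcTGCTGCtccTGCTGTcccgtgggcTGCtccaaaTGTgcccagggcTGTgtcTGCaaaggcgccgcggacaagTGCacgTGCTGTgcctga
Mt2: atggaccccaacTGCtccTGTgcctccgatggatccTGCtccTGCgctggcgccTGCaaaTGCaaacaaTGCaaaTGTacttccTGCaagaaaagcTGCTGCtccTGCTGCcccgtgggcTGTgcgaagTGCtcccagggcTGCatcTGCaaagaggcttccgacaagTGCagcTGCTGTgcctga
Mt3: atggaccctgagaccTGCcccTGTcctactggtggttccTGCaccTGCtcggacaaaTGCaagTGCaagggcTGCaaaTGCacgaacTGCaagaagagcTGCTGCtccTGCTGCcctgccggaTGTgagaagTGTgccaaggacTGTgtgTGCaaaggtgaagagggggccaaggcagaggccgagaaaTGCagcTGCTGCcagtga
All 3 hold 20 cysteine codons, which is 32.8% of the 61 codons of Mt1 and of Mt2 and 29.4% of the 68 codons of Mt3. Mt3 is thus the longer protein with no more cysteines.

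Mt3 was at 2210, 2570 and 2680 CPM in marginal cells of captures 1, 2 and 3. Intermediate cells had 323, 324 and 330 CPM, and basal cells 149, 446 and 261 CPM. The marginal captures were all higher than every intermediate, basal and spindle/root sum, of which the highest was 674 CPM in the 4 spindle/root cells of capture 1. The fitted difference was 2.62 ± 0.14 (log2, SE) over intermediate cells (adjusted p = 5.43e-48) and 2.98 ± 0.17 over basal cells (adjusted p = 2.61e-45), in the same direction in 3 of 3 captures. Beside these, 36.4% of all genes were called between marginal and intermediate cells and 36.4% between marginal and basal cells. Over spindle/root cells, at 313 and 436 CPM in captures 2 and 3, the difference was 2.91 ± 0.22 (adjusted p = 4.32e-29), with 22.4% of all genes called in that contrast. At equal depth of 1000 UMIs per cell, 86.7% of marginal cells had an Mt3 UMI, against 23.5% of intermediate cells, 39.4% of basal cells and 10.0% of erythroid cells, a type not known to use the gene. Without that thinning the shares were 97.0%, 68.0%, 77.3% and 46.0%, at median depths of 11496, 6212.5, 8426 and 10193.5 UMIs.

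Some RNA of one type was found in barcodes of another, and its size can be set beside Mt3. Of 39 genes at least 20 times higher in marginal than in intermediate nuclei, the summed level in intermediate cells was 3.18% of that in marginal cells. Mt3 in intermediate cells was 12.8% of its marginal level. In the reverse direction the share was larger, and 91 intermediate genes reached 29.5% of their intermediate level in marginal cells. Intermediate and spindle/root cells did not differ detectably in Mt3 (0.30 ± 0.24 on the log2 scale, adjusted p = 0.377, with 29.0% of all genes called in that contrast), nor did intermediate and basal cells (0.36 ± 0.18, adjusted p = 0.0954, with 35.6% of all genes called).

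Mt2 ran the other way. Its level was 340, 148 and 234 CPM in intermediate cells, 124, 95.9 and 189 CPM in marginal cells and 35.2, 50.8 and 65.2 CPM in basal cells. Intermediate cells were the higher in each of the 3 captures, although the intermediate value of capture 2 lay below the marginal value of capture 3, so the ranges over captures overlapped. With the capture as a term, Mt2 was 1.03 ± 0.15 lower in marginal than in intermediate cells on the log2 scale (adjusted p = 5.15e-10), and without that term the value was −1.13 and did not pass the threshold. Over basal cells the intermediate value was higher by 2.29 ± 0.24 (adjusted p = 1.11e-17) and the marginal value by 1.26 ± 0.28 (adjusted p = 5.65e-05). The latter, at 1.36 without the capture term, did not pass. Marginal cells held 60.0% of the intermediate Mt2 level, where the intermediate genes named above reached 29.5% in the same cells.

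Mt1 was high in both types. It reached 1000, 878 and 1330 CPM in marginal cells and 1050, 760 and 1060 CPM in intermediate cells, ranges that overlap widely. The marginal minus intermediate difference of −0.16 ± 0.14 on the log2 scale did not pass the test (adjusted p = 0.394). Basal cells had 378, 480 and 717 CPM, below marginal and intermediate cells in 3 of 3 captures. The basal shortfall was 1.13 ± 0.16 against intermediate cells (adjusted p = 6.34e-11) and 0.97 ± 0.16 against marginal cells (adjusted p = 4.67e-08). Neither passed without the capture term, at 1.15 and 1.00. Capture 3 had the highest Mt1 of each type. It also had the highest summed level of 7 erythroid genes in each type, 1760 to 2040 CPM against 135 to 362 CPM in captures 1 and 2, and the part of that RNA in the Mt1 values was not tested. Mt1 in the erythroid cells themselves was 117 CPM ± 0.939 (n = 2 captures), below every marginal, intermediate and basal value.

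Between members of the cluster, Mt3 exceeded Mt1 in marginal cells of each capture, and Mt1 exceeded Mt3 in intermediate and in basal cells of each capture. Mt2 was the lowest of the 3 in every type and capture except intermediate cells of capture 1. There it was at 340 CPM, and Mt3 was at most 330 CPM in any intermediate capture. Across the 11 sums, log2 levels of Mt1 and Mt2 had a Pearson r of 0.83, Mt1 and Mt3 of 0.50 and Mt2 and Mt3 of 0.30. These sums share captures and base composition, and the values are a description only.

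**Figure D3:**
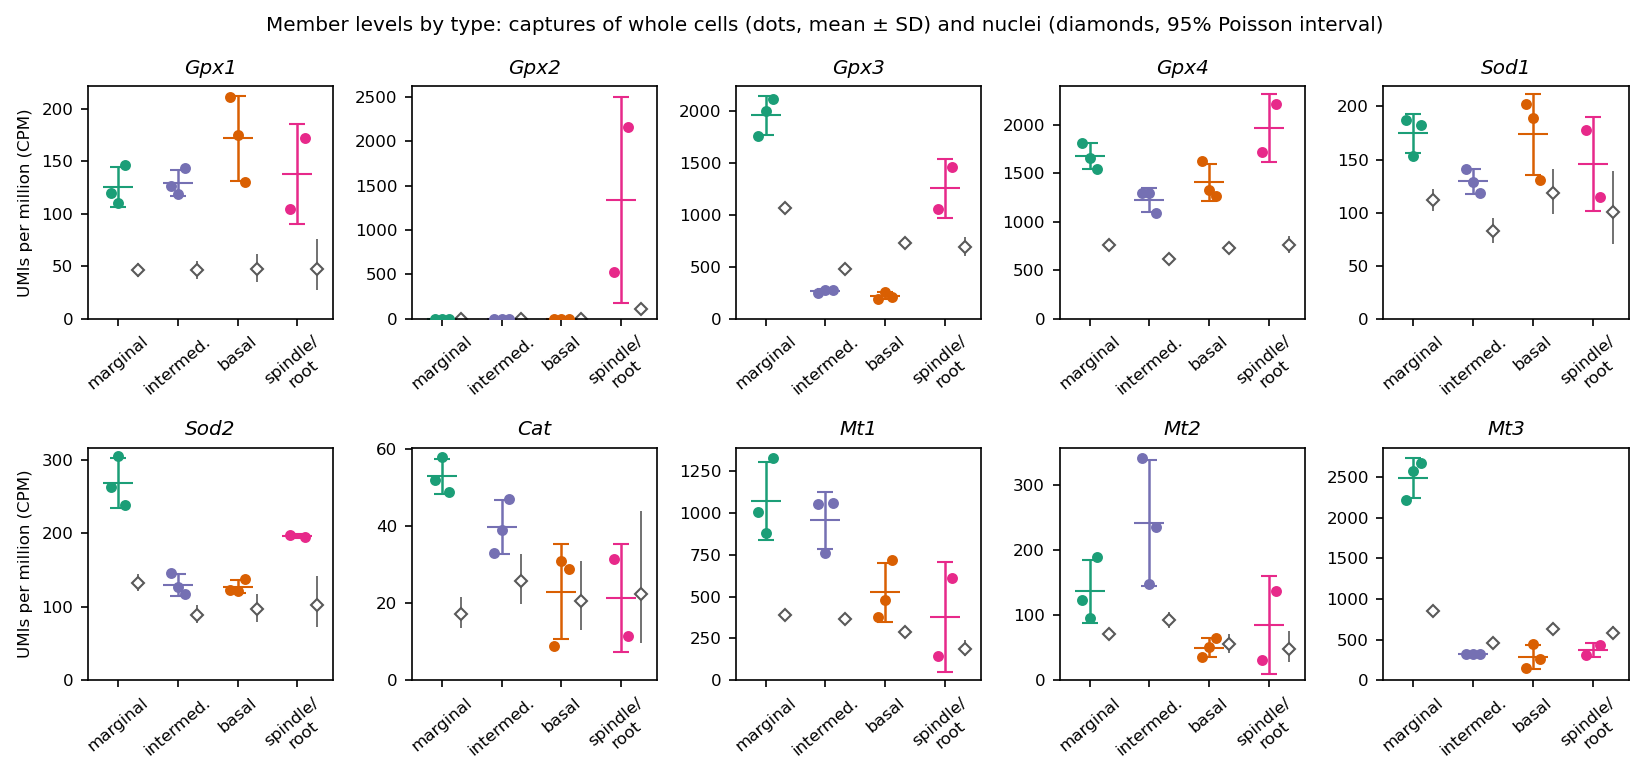
Level of each gene in CPM (vertical axes differ between panels) by SV type, with 1 dot per whole-cell capture, bars for mean ± SD over captures and open diamonds for nuclei with their 95% Poisson interval. Mt3 and Gpx3 captures of marginal cells stand apart from intermediate and basal cells, Mt2 is highest in intermediate cells and Gpx2 rises from the axis in spindle/root cells alone.

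The 250 bases before the annotated start of each metallothionein gene (RefSeq promoter table, plus strand, chr8:94178839-94179088 for Mt1, chr8:94172368-94172617 for Mt2 and chr8:94152357-94152606 for Mt3) are printed because metal response elements, the sites of the zinc-sensing factor MTF1, are textbook features of Mt1 and Mt2. Capitals mark the cores TGCACNC and TGCGCNC on either strand.
Mt1 promoter: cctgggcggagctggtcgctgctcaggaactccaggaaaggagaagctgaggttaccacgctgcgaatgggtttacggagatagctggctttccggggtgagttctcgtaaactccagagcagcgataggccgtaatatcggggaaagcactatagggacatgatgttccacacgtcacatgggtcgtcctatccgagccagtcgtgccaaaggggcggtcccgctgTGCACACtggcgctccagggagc
Mt2 promoter: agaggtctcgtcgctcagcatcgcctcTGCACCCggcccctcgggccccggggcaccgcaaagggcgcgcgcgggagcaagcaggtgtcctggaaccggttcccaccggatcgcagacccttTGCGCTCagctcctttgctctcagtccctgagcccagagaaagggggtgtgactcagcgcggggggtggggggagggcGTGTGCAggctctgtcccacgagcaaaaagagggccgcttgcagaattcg
Mt3 promoter: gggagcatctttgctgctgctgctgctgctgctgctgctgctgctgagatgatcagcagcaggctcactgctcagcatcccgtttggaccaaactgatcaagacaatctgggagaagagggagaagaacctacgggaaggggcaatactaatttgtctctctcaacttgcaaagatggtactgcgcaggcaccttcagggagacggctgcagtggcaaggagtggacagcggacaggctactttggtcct
In the full window of the table, which adds 50 bases after the start, the cores occurred 3 times for Mt1, 4 times for Mt2 and 1 time for Mt3, and 0 times for the other 7 genes. Of 32851 promoter windows of the same length, 25.7% held at least 1 core, 1.97% held at least 3 and 0.517% held at least 4. The antioxidant response element core TGACNNNGC occurred 1 time each in the windows of Sod1 and Mt2 and 0 times for the other 8 genes, with 12.4% of all windows holding it. These are letter matches in 1 window per start and do not show a bound site.

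Among the glutathione peroxidases, all 4 members studied here are selenoenzymes. Each reads an in-frame TGA as selenocysteine at its active site, and 30 bases around that codon are printed, with the TGA in capitals, because it is the feature that the 4 share.
Gpx1: gtcgcgtctctcTGAggcaccacgatccgg
Gpx2: gtggcgtcactcTGAggaacaactacccgg
Gpx3: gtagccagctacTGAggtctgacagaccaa
Gpx4: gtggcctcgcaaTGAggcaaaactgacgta
The codon is number 47 in Gpx1, 40 in Gpx2, 73 in Gpx3 and 129 in the Gpx4 transcript used here, and lies at chr9:108339451-108339453 (plus strand), chr12:76795256-76795258 (minus), chr11:54907256-54907258 (plus) and chr10:80054737-80054739 (plus) in GRCm38. In each gene the TGA is followed by a glycine codon beginning GG.

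Gpx3 encodes the secreted, plasma-type enzyme and was the second gene that set marginal cells apart. Its level was 1750, 2000 and 2120 CPM in marginal cells, 252, 280 and 275 CPM in intermediate cells and 193, 260 and 210 CPM in basal cells. Every marginal capture lay far above every intermediate and basal capture. The marginal excess was 2.55 ± 0.14 over intermediate cells (log2, adjusted p = 3.57e-52) and 3.07 ± 0.18 over basal cells (adjusted p = 1.42e-49), each in 3 of 3 captures. Intermediate cells exceeded basal cells by 0.52 ± 0.18 (adjusted p = 0.0149), a call that was lost without capture 1 (0.49), without TMM scaling (0.23), at resolution 1.2 (0.39) and with at most 50% mitochondrial UMIs per cell (0.22). Spindle/root cells of captures 2 and 3 held 1050 and 1460 CPM, between marginal and intermediate cells. They were 0.80 ± 0.18 below marginal cells (adjusted p = 0.000128) and 1.75 ± 0.18 above intermediate cells (adjusted p = 3.64e-18). These spindle/root values average the unlike subsets described further below. The unnamed cells, over which no type was assigned, held 881 CPM ± 47.6 of Gpx3 and 1300 CPM ± 131 of Mt3 (n = 3).

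Gpx2, the enzyme best known from gut epithelium, was close to absent outside spindle/root cells. The 3 captures held 2 Gpx2 UMIs in marginal, 10 in intermediate and 0 in basal cells, which allows a basal level of up to 4.95 CPM. In spindle/root cells the level was 150 CPM in the 4 cells of capture 1 and 522 and 2160 CPM in captures 2 and 3. Every spindle/root capture was thus far above every capture of the other types, while the spindle/root captures themselves spread widely. Pooled over captures the spindle/root level of 993 CPM, from 248 UMIs, was 762 times that of marginal cells (95% interval 209 to 6320) and 640 times that of intermediate cells (342 to 1350). Against basal cells it was at least 201-fold higher, with the basal level set to 3 UMIs over the 3 captures. The intervals cover counting error only and not the spread between cells or captures. Of the 248 UMIs, 125 came from 1 cell of capture 3. No p-value is given for Gpx2, because it passed the filter on low counts through the spindle/root sums alone. The Epyc-led cluster that carries these UMIs received no name at clustering resolution 1.2 or without doublet removal, so the spindle/root sums there lacked it. The fitted log2 fold change of Gpx2 in spindle/root cells was 10.18 with that cluster and 4.10 at resolution 1.2. Gpx2 overlaps Fntb on the opposite strand, which had 432 UMIs in whole cells, and the pseudogene Gpx2-ps1, listed for the nuclei alone, had 0 UMIs.

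Gpx4, which reduces lipid hydroperoxides in membranes, was the most even of the abundant members. It was at 1820, 1660 and 1550 CPM in marginal cells, 1300, 1300 and 1090 CPM in intermediate cells, 1630, 1330 and 1270 CPM in basal cells and 1720 and 2210 CPM in spindle/root cells of captures 2 and 3. Marginal cells were above intermediate cells in each capture on this scale. After scaling for composition the difference was 0.14 ± 0.14 (log2) and did not pass (adjusted p = 0.467), and none of the 6 pairwise contrasts of Gpx4 passed. The largest was 0.45 ± 0.18 between spindle/root and basal cells (adjusted p = 0.0593), a contrast in which 21.4% of all genes were called.

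Gpx1, the cytosolic enzyme, was low in all 4 types. Marginal cells had 120, 111 and 147 CPM, intermediate cells 126, 119 and 143 CPM and basal cells 211, 175 and 130 CPM, and the ranges of the 3 types overlapped. Marginal cells were 0.51 ± 0.21 below basal cells (adjusted p = 0.0436). That call was lost under 9 of its alternative settings, among them leaving out capture 1 (−0.41) or capture 2 (−0.35), DESeq2 (−0.54), no TMM scaling (−0.48), no low-count filter (−0.51), no capture term (−0.48) and resolution 1.2 (−0.17), and capture 3 ran against it. The other glutathione peroxidases of the family were sparse: Gpx5 had 0 UMIs in the 4 types, Gpx6 had 17 in marginal and 1 in intermediate cells, and Gpx7 had 1, 14 and 4 in marginal, intermediate and basal cells. Gpx8, an endoplasmic reticulum member, had 15.6 CPM ± 7.23 in marginal, 12.9 ± 2.8 in intermediate, 31.2 ± 4.93 in basal and 50.1 ± 26.5 in spindle/root cells. Marginal cells were called for it, at −1.06 ± 0.42 against the mean of the other types (adjusted p = 0.0432).

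Of the superoxide dismutases, the mitochondrial enzyme Sod2 differed between types. Marginal cells had 263, 305 and 238 CPM, intermediate cells 146, 127 and 117 CPM and basal cells 123, 121 and 138 CPM. All 3 marginal captures were above all intermediate and basal captures. The excess was 0.77 ± 0.14 over intermediate cells (log2, adjusted p = 2.68e-07) and 1.11 ± 0.20 over basal cells (adjusted p = 6.22e-07). Spindle/root cells, at 198 and 195 CPM, did not differ detectably from marginal cells (0.52 ± 0.27, adjusted p = 0.155). Sod1, the cytosolic copper and zinc enzyme, was at 187, 154 and 183 CPM in marginal, 141, 129 and 118 CPM in intermediate and 202, 189 and 130 CPM in basal cells, and none of its 6 pairwise contrasts passed, with estimates from −0.17 to 0.31. Sod1 overlaps Scaf4 on the opposite strand, which had 122 UMIs in whole cells.

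The extracellular dismutase Sod3, a listed relative, had the opposite preference. Intermediate cells held 55.0 CPM ± 9.3 of Sod3 (n = 3), against 21.8 CPM ± 6.2 in marginal and 11.1 CPM ± 5.65 in basal cells. The fit placed Sod3 in intermediate cells 4.26 ± 0.51 above the mean of the other types. It passed the low-count filter through the intermediate sums, so no p-value is given. Spindle/root sums in the fit held 0 UMIs of Sod3, so that fold rests partly on a 0. Ccs, the copper chaperone of Sod1, was lower in intermediate cells by 1.31 ± 0.30 (adjusted p = 0.000131), at 13.9 CPM ± 0.641. Of the 7 family relatives listed, Sod3, Ccs and Gpx8 were the 3 tested, with list medians of −0.85, −0.78, 0.56 and 1.34 in marginal, intermediate, basal and spindle/root cells.

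Catalase, the peroxisomal enzyme, was the lowest of the members after Gpx2 in marginal, intermediate and basal cells. Its level was 51.8, 57.8 and 48.9 CPM in marginal cells, 33.1, 39.0 and 47.0 CPM in intermediate cells and 8.79, 31.1 and 29.0 CPM in basal cells, from 83, 265 and 16 UMIs. Marginal captures lay above intermediate captures and intermediate captures above basal captures. After scaling for composition, the marginal minus intermediate difference was 0.09 ± 0.21 (log2) and did not pass (adjusted p = 0.782). The excess over basal cells was 1.00 ± 0.39 in marginal (adjusted p = 0.0303) and 0.91 ± 0.36 in intermediate cells (adjusted p = 0.0369). Both calls were lost on leaving out any 1 of the 3 captures, with values of 0.80 to 1.25 and 0.77 to 1.34. They were also lost with DESeq2, without the low-count filter (1.00 and 0.95), at resolution 1.2 (0.91 and 0.90) and with at most 50% mitochondrial UMIs per cell (0.81 and 0.68), and the intermediate call without TMM scaling as well (0.62).

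Counted between types, 3 of the 10 genes were higher and 1 lower in marginal than in intermediate cells (Gpx3, Sod2 and Mt3 against Mt2), beside 36.4% of all genes called in either direction. Against basal cells, 6 were higher in marginal cells and 1 lower, beside 36.4% of all genes, and 4 were higher in intermediate cells and 0 lower, beside 35.6%. When the types were ordered by mean level for each gene, 8 of the 27 neighbouring pairs of the 9 genes other than Gpx2 passed the test. Gpx3 was the gene whose 3 neighbouring pairs all passed, in the order marginal, spindle/root, intermediate, basal, the last pair with the losses given above. The spindle/root place in that order averages subsets that differ in Gpx3, described next, and its pairs were not followed within either subset. Gpx1, Gpx4, Sod1 and Sod2 had no neighbouring pair that passed.

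Calls of the other kind, a type against the mean of the rest, depended on what spindle/root cells are. That named group was made of 1 cluster of 18 cells led by Epyc and holding Lgr5 (109 CPM), and 1 of 10 cells with Anxa1 at 8670 CPM and Dpp10 at 68.9 CPM. The nuclei gave the same kinds of cluster, with 107 and 98 nuclei. The subsets are called by these genes and given no further name. Since the clusters were split on the cells' own expression, though not on the 10 genes, their differences are given as values with no test.

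Gpx2 and Gpx3 lay in different subsets. In the Epyc and Lgr5 subset Gpx2 was at 272, 803 and 7810 CPM in captures 1, 2 and 3, from 10, 47 and 186 UMIs, while Gpx3 held 67.2 CPM pooled over captures, from 8 UMIs. In the Anxa1 and Dpp10 subset Gpx3 was at 2550 CPM pooled, from 333 UMIs, and Gpx2 at 38.3 CPM, from 5 UMIs. Neither pooled Gpx3 level lay between the levels of marginal and intermediate cells. Of the 186 Gpx2 UMIs of capture 3, 67.2% came from 1 cell, and without that cell the level was 3550 CPM. A Gpx2 UMI was seen in 14 of the 18 cells of the Epyc and Lgr5 subset. Mt1, Mt2 and Mt3 stood at 643, 153 and 796 CPM in the Anxa1 and Dpp10 subset and at 42.0, 0 and 75.5 CPM in the other. Most Mt3 UMIs of the Anxa1 and Dpp10 subset came from 1 cell in each capture, with 100%, 93.1% and 88.6% of them in captures 1, 2 and 3. For Mt1 the share of 1 cell was 95.2%, 92.3% and 36.0% in the same order, and for Mt2 it was 100%, 100% and 58.3%. Gpx4 was alike in level in both subsets, at 2110 and 1770 CPM.

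**Figure D4:**
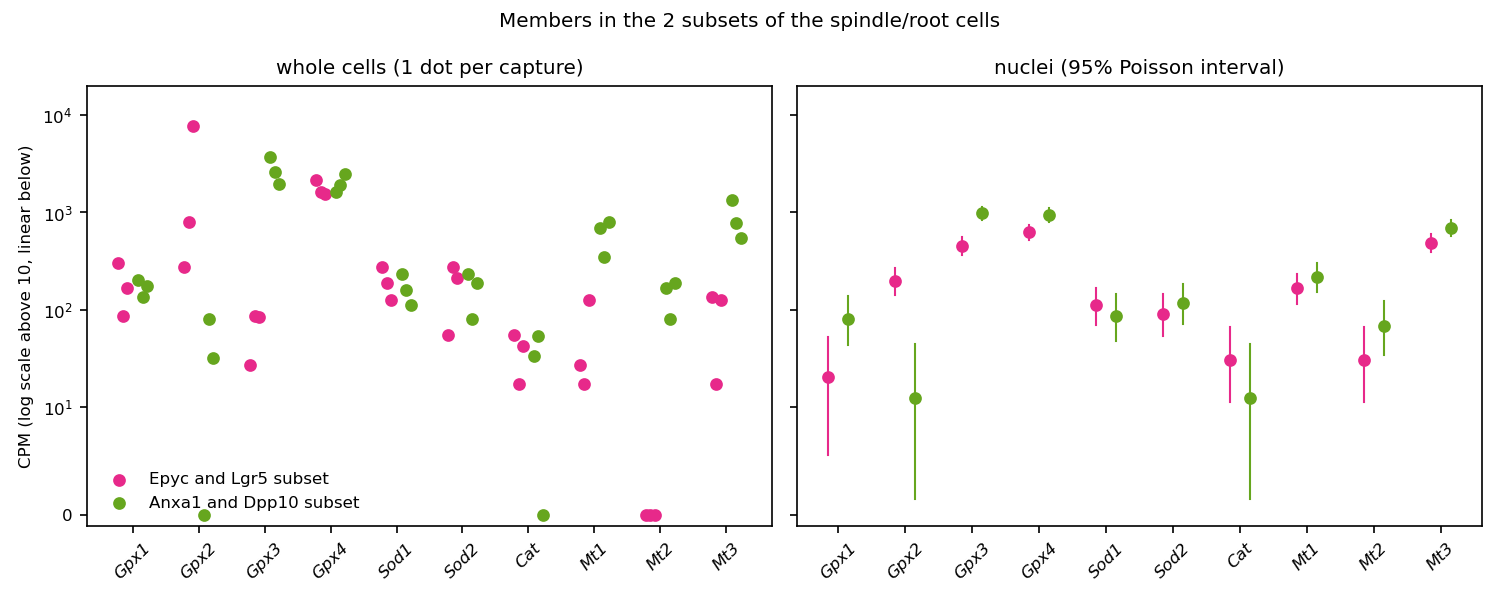
Levels of the 10 genes in CPM (log scale above 10, linear below) in the 2 subsets of spindle/root cells, with 1 dot per whole-cell capture (left) and 1 point with its 95% Poisson interval for nuclei (right). Gpx2 is high in the Epyc and Lgr5 subset and Gpx3, Mt1, Mt2 and Mt3 are high in the Anxa1 and Dpp10 subset of whole cells, and in nuclei the same direction is smaller.

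For Gpx2, Gpx3 and the metallothioneins, nuclei gave the same direction with smaller gaps. Gpx2 was at 197 CPM in Epyc and Lgr5 nuclei and 12.4 CPM in Anxa1 and Dpp10 nuclei, from 39 and 2 UMIs, with 43.6% of the former in 1 nucleus. Gpx3 was at 456 and 979 CPM and Mt3 at 486 and 694 CPM in the same order. The Poisson intervals of the subsets overlapped for Mt1, Mt2 and Mt3. Gpx4, alike in whole cells, was at 623 CPM (518 to 743) in Epyc and Lgr5 nuclei. In Anxa1 and Dpp10 nuclei it was at 936 CPM (793 to 1100). RNA of marginal cells was also present. A set of 18 genes at least 20 times higher in marginal than in spindle/root nuclei reached 59.6% of their marginal level in spindle/root cells. That share rests on 659 UMIs in marginal and 64 in spindle/root cells, and stands beside 68.5% for Gpx3 and 17.8% for Mt3. The fixed marginal markers were at 1310 to 2190 CPM in spindle/root and 6710 to 7430 CPM in marginal cells. The part of marginal RNA in the Gpx3 level was not tested. When the Anxa1 and Dpp10 subset was left out of the sums, an alternative chosen after the data had been seen, Gpx3 in spindle/root cells turned from 1.08 ± 0.17 above the other types to 3.09 below them on the log2 scale. Under that alternative the median of all genes moved by −0.50 in the spindle/root contrast and by 0.23, 0.19 and 0.17 in the marginal, intermediate and basal contrasts. In intermediate cells Gpx3 and Mt3 turned to 0.13 and 0.43, and in basal cells Mt1 and Mt2 turned to 0.58 and 1.51. The basal calls of Gpx3 (−0.57) and Mt3 (−0.06) and the intermediate call of Cat (0.76) were lost. The marginal calls of Mt3, Gpx3, Mt1 and Sod2 stayed, and Cat was lost there (0.88) while Mt2 passed (3.18).

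Read with that limit, the type-against-the-rest fold changes were as follows. Marginal cells were higher in Mt3 by 2.84 ± 0.12, in Gpx3 by 2.14 ± 0.12, in Mt1 by 0.83 ± 0.13, in Sod2 by 0.80 ± 0.15 and in Cat by 0.85 ± 0.31, all on the log2 scale with adjusted p of 9.58e-66, 3.34e-53, 9.19e-09, 9.41e-07 and 0.0236. The Mt1 value, 0.82 without the capture term, did not then pass, and the Cat value was lost without any 1 of the captures (0.75 to 1.17), with DESeq2 (0.84), without doublet removal (0.88) and with at most 50% mitochondrial UMIs per cell (0.81). Intermediate cells were higher in Mt2 by 1.68 ± 0.16 (adjusted p = 4.29e-20), in Mt1 by 1.04 ± 0.13 (adjusted p = 9.78e-14) and in Cat by 0.73 ± 0.28 (adjusted p = 0.0276), the last lost without capture 3 (0.45), without TMM scaling (0.39), with DESeq2 (0.74), without doublet removal (0.76) and with at most 50% mitochondrial UMIs per cell (0.64). They were lower in Gpx3 by 1.26 ± 0.13 (adjusted p = 3.17e-18) and in Mt3 by 0.65 ± 0.14 (adjusted p = 3.03e-05). Basal cells had their 5 lower calls in Gpx3, Sod2, Mt1, Mt2 and Mt3. Of these, Mt1 (−0.46) and Mt2 (−1.37) did not pass without the capture term, at −0.52 and −1.48. Leaving out capture 3 ended the basal calls of Mt1 (−0.15) and Mt2 (−0.98), leaving out capture 1 that of Mt1 (−0.29), and leaving out capture 2 that of Sod2 (−0.56). The basal Mt1 call was also lost with DESeq2 (−0.43) and without the low-count filter (−0.41). In spindle/root cells Mt1 was lower by 1.42 ± 0.22 (adjusted p = 5.67e-09; −1.32 without the capture term, not past the threshold) and Mt3 by 1.05 ± 0.22 (adjusted p = 3.11e-05; not past the threshold without capture 2, −0.70, at resolution 1.2, −0.83, or without doublet removal, −0.19).

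The leading type was the same in nuclei as in whole cells for 8 of the 10 genes, although some of these were near ties in nuclei. Mt1 was at 389 CPM (371 to 408) in marginal and 365 CPM (341 to 389) in intermediate nuclei. Gpx1 was at 47.6 CPM (35.6 to 62.2) in basal and 47.4 CPM (27.6 to 75.9) in spindle/root nuclei, and Gpx4 at 764 CPM (676 to 860) in spindle/root and 760 CPM (734 to 786) in marginal nuclei. Mt3 was at 858 CPM (95% Poisson interval 830 to 886) in marginal, 455 in intermediate, 629 in basal and 580 in spindle/root nuclei. Gpx3 was at 1060, 480, 733 and 691 CPM in the same order, Sod2 at 132, 89.1, 97.0 and 103 CPM and Mt1 at 389, 365, 290 and 190 CPM. Mt2 was again highest in intermediate nuclei, at 91.9 CPM (80.4 to 105) against 71.4 CPM in marginal and 55.7 CPM in basal nuclei. Gpx2 reached 114 CPM in spindle/root nuclei, from 41 UMIs, against 2.06, 1.2 and 0.898 CPM in marginal, intermediate and basal nuclei, from 9, 3 and 1 UMIs. The 2 genes whose leading type changed were Cat, highest in intermediate nuclei at 25.7 CPM and lowest in marginal nuclei at 17.2 CPM, and Sod1, at 119 CPM in basal and 112 CPM in marginal nuclei. Sod1 was itself a near tie in whole cells, with means of 175 CPM in marginal and 174 CPM in basal cells. Below the leading type the order mostly differed, and Gpx4 and Mt1 were the genes that kept it in full. Gpx3, called higher in intermediate than in basal cells, was at 480 CPM (453 to 508) in intermediate and 733 CPM (683 to 785) in basal nuclei. Mt3, not called between these cells, was also higher in basal than in intermediate nuclei. The limit on basal nuclei given above holds here. With 1 nucleus library there is no replicate check, and the intervals cover counting error only.

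Gaps between types were narrower in nuclei. Intermediate nuclei held 53.0% of the marginal Mt3 level, where intermediate cells held 12.8%, and 45.1% of the marginal Gpx3 level, where cells held 13.7%. Types that are not SV epithelium also held these RNAs: erythroid nuclei had 166 CPM of Mt3 and 206 CPM of Gpx3, and B cell nuclei 319 and 273 CPM. Median depths were 5277 UMIs in erythroid, 1569 in B cell, 1393 in marginal and 1422 in intermediate nuclei. In whole cells the erythroid levels were 65.8 CPM ± 3.40 and 55.2 CPM ± 18.3 (n = 2 captures). The unnamed nuclei, in which 46.4% of UMIs were mitochondrial, held 1980 CPM of Gpx3, 1770 CPM of Gpx4 and 1700 CPM of Mt3, more than in nuclei of any of the 4 SV types. Free RNA moving into nucleus barcodes was measured here only by these values, and its part in each nucleus level was not tested.

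Within a type, most of the 10 genes were lower in nuclei than in whole cells, relative to other genes. The log2 ratio of nuclei to cells lay below the median of all genes for 9 of the 10 genes in marginal, 8 in intermediate, 6 in basal and 8 in spindle/root cells, where the medians over 7429, 7617, 2583 and 830 genes were 0.35, 0.21, 0.10 and −0.15. In marginal cells the ratio was −1.53 for Mt3, −1.14 for Gpx4 and −0.88 for Gpx3. In intermediate cells Mt3 (0.48) and Gpx3 (0.83) lay above the median, and so did Gpx3 (1.72) and Mt3 (1.14) in basal cells. Gpx1 lay below the median in all 4 types, with ratios from −1.83 to −1.42.

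**Figure D5:**
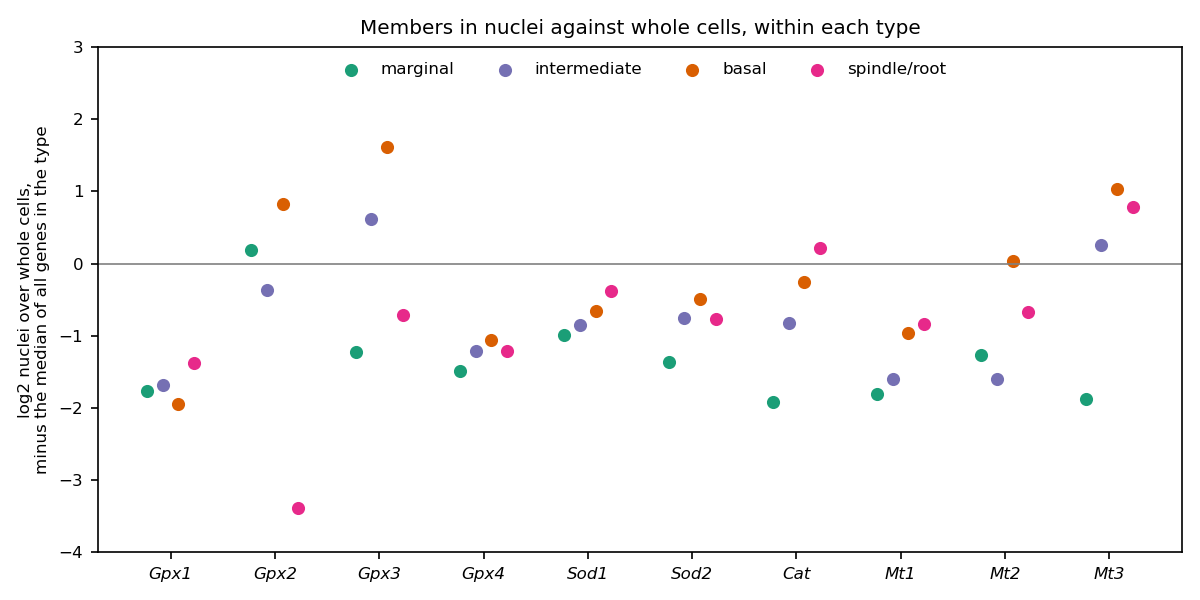
Log2 ratio of the level in nuclei to the mean level in whole cells within each SV type, minus the median of that ratio over all genes of the type (horizontal line at 0). Gpx1, Gpx4, Sod1, Sod2 and Mt1 lie below the line in all 4 types, while Gpx3 and Mt3 lie above it in intermediate and basal cells.

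Related genes of the same pathways were listed with earlier results of these data known and counted against the other types. Some listed genes, Sod3, Nqo1 and Foxo1 among them, passed the low-count filter through the sums of 1 type alone. The list counts include them. Calls of listed genes, those of Gpx8, Sod3 and Ccs included, were not followed under the alternative settings. They set a type against the mean of the rest, so the limit from the unlike spindle/root subsets holds for them too. Of 17 tested peroxiredoxin and thioredoxin genes, 4 were higher and 3 lower in marginal, 4 higher and 3 lower in intermediate, 0 higher and 6 lower in basal and 5 higher and 0 lower in spindle/root cells. In these contrasts 29.8%, 35.6%, 29.9% and 20.5% of all genes were called, the background for this list and those that follow, and no list is read as standing apart from it. The list medians were 0.17, 0.05, −0.55 and 0.49 (log2), beside 0.08, 0.02, −0.03 and −0.03 for all genes. Prdx2 and Prdx6, peroxide-reducing peroxiredoxins, were higher in spindle/root cells by 1.41 ± 0.22 (adjusted p = 1.46e-08) and 1.49 ± 0.23 (adjusted p = 3.72e-09) and lower in basal cells, at −1.26 for both (adjusted p = 1.75e-08 and 6.94e-08). Glrx5, a mitochondrial glutaredoxin of iron-sulphur cluster assembly, was higher in marginal cells by 1.41 ± 0.14 (adjusted p = 4.87e-19), and Glrx3 in spindle/root cells by 2.12 ± 0.42 (adjusted p = 1.01e-05). Txnrd2, the mitochondrial thioredoxin reductase, was higher in marginal cells by 1.36 ± 0.53 (adjusted p = 0.0407), with 1 UMI in basal cells.

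Glutathione and NADPH supply genes, of which 9 were tested, had 2 higher and 0 lower in marginal, 1 higher and 2 lower in intermediate, 2 higher and 1 lower in basal and 0 called in spindle/root cells, with list medians of −0.17, −0.01, 0.05 and −0.49. Gclc, the catalytic subunit of the first enzyme of glutathione synthesis, was at 80.8 CPM ± 23.6 in marginal and 18 CPM ± 3.75 in intermediate cells, 1.52 ± 0.25 above (adjusted p = 5.69e-08) and 1.08 ± 0.32 below (adjusted p = 0.00332) the mean of the other types. Of the enzymes that supply NADPH, Nnt was higher in marginal cells by 0.80 ± 0.30 (adjusted p = 0.031). Idh2 was higher in intermediate cells by 0.91 ± 0.21 (adjusted p = 0.000122) and lower in basal cells by 1.01 ± 0.37 (adjusted p = 0.0252), and Pgd and Idh1 were higher in basal cells by 2.02 ± 0.32 (adjusted p = 1.64e-08) and 1.35 ± 0.33 (adjusted p = 0.000393).

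Regulators and their targets, 10 of them tested, had 1 higher in marginal, 2 higher and 1 lower in intermediate, 3 higher and 1 lower in basal and 2 lower in spindle/root cells, with list medians of 0.02, 0.20, 0.33 and −0.79. Nqo1, a target of the oxidant-responsive factor NRF2, was at 39.8 CPM ± 7.12 in basal cells against 9.67 CPM ± 4.61 in marginal and 7.65 CPM ± 1.45 in intermediate cells. The spindle/root sums held 0 UMIs of Nqo1, and its fitted value in basal cells was 4.14 ± 0.83. Foxo1 was at 66.3 CPM ± 18.1 in basal cells, with a fitted value of 1.90 ± 0.39. Nqo1 and Foxo1 are among the 3 genes counted as higher in basal cells. Both passed the low-count filter through the basal sums alone, so no p-value is given for them. Nfe2l1 was also higher in basal cells by 1.57 ± 0.17 (adjusted p = 2.25e-17). Nfe2l2, which encodes NRF2, was instead higher in intermediate cells by 0.92 ± 0.23 (adjusted p = 0.000474). Ppargc1a, a coactivator of mitochondrial biogenesis, was higher in marginal (1.80 ± 0.23) and intermediate cells (1.89 ± 0.21) and lower in basal (−1.81 ± 0.44) and spindle/root cells (−1.88 ± 0.55), with adjusted p of 1.04e-12, 6.55e-17, 0.000327 and 0.00553.

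Of 6 tested genes of selenium supply and selenoprotein synthesis, 2 were higher in intermediate, 1 higher and 1 lower in marginal, 1 lower in basal and 2 lower in spindle/root cells, with list medians of 0.30 in marginal, 0.17 in intermediate, −0.15 in basal and 0.09 in spindle/root cells. Sepp1, which encodes the secreted selenium carrier selenoprotein P, was at 5460 CPM ± 282 in intermediate cells, above each of the 10 genes in any of the 4 types, and at 1980 CPM ± 186 in marginal cells. The 91 intermediate genes set beside Mt2 above reached 29.5% of their intermediate level in marginal cells. The part of such RNA in the marginal level of Sepp1 was not tested. Sepp1 was 2.88 ± 0.12 above the mean of the other types in intermediate cells (adjusted p = 3.45e-78) and 2.95 ± 0.21 below it in spindle/root cells (adjusted p = 1.08e-33). Scly, which releases selenium from selenocysteine, was higher in intermediate cells by 2.37 ± 0.23 (adjusted p = 1.34e-20).

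Genes that rise during tissue dissociation also differed between the types. Of 15 tested, 1 was higher and 10 lower in intermediate cells, 2 higher and 5 lower in marginal, 5 higher and 1 lower in basal and 7 higher and 0 lower in spindle/root cells, with list medians of −0.85, −0.49, 0.11 and 0.74. Their summed level was 1050 to 1480 CPM in intermediate, 2300 to 2470 in marginal, 2490 to 2790 in basal and 3060 to 3580 CPM in spindle/root cells, and 579 to 863 CPM in nuclei. Metallothioneins are themselves stress-inducible. The part of dissociation in the metallothionein levels was not tested.

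Genes whose levels followed a member most closely over the 11 sums, out of 6472 genes, were named by a fixed rule and are a description over sums that share captures and types. Kcnk1 and Dach1 followed Gpx3, both with a Pearson r of 0.99. Trim32 (0.98) and 4833439L19Rik (0.97) followed Mt3, Tacr3 and Atp1b2 (both 0.97) followed Sod2, and Mertk (0.96) and Evi5l (0.915) followed Mt2. Vegfb (0.97) and Fndc3b (0.95) followed Mt1, Lima1 and Tmem167b (both 0.98) followed Gpx2, and Cnst (0.96) and Yes1 (0.95) followed Cat. Gpx4 had Tspo and Bik (both 0.95), Sod1 had Nsun2 (0.93) and Rtcb (0.91), and Gpx1 had Zc3h14 (0.90) and Jup (0.88). Among the 10 genes themselves, Gpx3 went with Sod2 (0.94) and with Mt3 (0.83), and Gpx1 ran against Cat (−0.73).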

How the data were processed

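Per the labels and the study's methods, the authors made the deposited UMI count matrices with Cell Ranger 2.0.0 on mm10, and counts were raw molecules per gene and barcode. Whether intronic reads were counted in the nuclei is not given in the sources used here. Barcodes under 200 genes were removed and doublets called with Scrublet at 0.8% per 1000 barcodes, through scanpy 1.11.5. Clustering used Seurat 5.3.0 (2000 variable genes without the 10 genes and their listed relatives, 36 components for cells and 40 for nuclei, resolution 0.8), and clusters were named from 100 marker genes of 14 classes. The 10 genes, the marker lists and the gene lists were chosen with earlier results of these data known.

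UMIs of at least 5 cells were summed per capture and type and tested with edgeR 4.0.16 in R 4.3.3 (quasi-likelihood, TMM, low-count filter), two-sided, with Benjamini-Hochberg adjustment over 6482 genes and 0.05 as threshold. The script was tested on simulated data. The capture was a block because sums of a capture came from 1 suspension. Deviations of such sums from their type means had correlations of −0.0395 to 0.284 over 2259 genes. With the capture as a term, the p-values set differences between types against their spread over captures of pooled mice. The quasi-likelihood method estimated that spread largely from all genes together and little from the few sums of each gene. That spread may be technical. Nuclei were 1 library and were not tested. Poisson and binomial intervals are exact at 95% and, like floors of 3 counts, cover counting error only. Named relatives were those called, at most 5 a list by size of change, plus for each gene the 2 genes most alike. Alternatives were other clusterings, filters, scalings and DESeq2 1.42.0.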

Additional observations from a re-analysis of the deposited data

Results flagged for a closer look

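Gpx1 was flagged in a cell type that entered no comparison between the SV types. Erythroid nuclei held 2010 CPM of Gpx1 (95% Poisson interval 1960 to 2060), from 5334 UMIs in 480 nuclei, against 46.1 to 47.6 CPM in nuclei of the 4 SV types. Erythroid cells held 2920 CPM over captures 2 and 3 together, with 1110 and 3200 CPM in each, and Gpx1 took most of the UMIs of the 10 genes there. Macrophages of whole cells held 1640 CPM ± 100 (n = 2 captures). These are values of types outside the layered epithelium and were not tested.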

How the results depend on the processing

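Gpx2 is included here and in all counts below. Without the later alternative, which left out the Anxa1 and Dpp10 subset, the 20 called type-against-the-rest values had 298 alternative settings. Of these, 267 gave the same call, 31 fell short of the threshold and 0 changed sign. Under each of these settings, 10 of the 20 values kept their call. They were Gpx3 in all 4 types, Mt3 in marginal, intermediate and basal cells, Mt1 and Mt2 in intermediate cells and Sod2 in marginal cells. With the later alternative included, 278 of 318 gave the same call, 35 fell short and 5 changed sign. Among the 10 values, Gpx3 and Mt3 in intermediate cells and Gpx3 in spindle/root cells changed sign under it. Gpx3 and Mt3 in basal cells fell short. Of the 15 called pairwise differences, 208 of 240 alternatives, the later one included, gave the same call and 32 fell short. The Gpx2 calls in these counts carry no weight, because Gpx2 passed the low-count filter through the spindle/root sums alone. Without the replicate block (the capture term), the members called in basal cells fell from 6 to 3. Neighbouring pairs past the threshold then fell from 9 to 6. The lost calls of a type against the rest, other than that of Gpx2, are named beside the results. So are lost pairs among marginal, intermediate and basal cells, while lost pairs with spindle/root cells are not named. Leaving the Anxa1 and Dpp10 subset out, chosen after seeing the data, gave 2 called members in intermediate cells (5 otherwise) and 2 in basal cells, with Gpx3 0.13, Gpx4 0.0864 and Mt3 0.43 in intermediate, Mt1 0.58 and Mt2 1.51 in basal, and Gpx3 −3.09 and Gpx4 −0.31 in spindle/root cells. At resolution 1.2 and without doublet removal the Epyc-led cluster was left unnamed, and the spindle/root sums lacked it. Gpx2 in spindle/root cells was at 4.10 in the former and not in the fit in the latter. At resolution 1.2 Mt3 took 33.1% of the marginal mix, Gpx1 and Gpx2 in marginal cells turned to 0.0315 and 0.66, Cat in basal cells to 1.92 and Sod2 in spindle/root cells to −0.285. Signs of values near 0, none of them called, also turned. With at most 50% mitochondrial UMIs per cell, Gpx4 and Sod1 in marginal cells were −0.0065 and −0.0394 and Gpx4 in intermediate cells 0.0023. Gpx1 in intermediate cells was −0.17 without TMM scaling. Sod1 in intermediate cells was 0.0514 without the low-count filter, 0.19 without doublet removal and 0.0403 at resolution 0.4, and Sod2 in spindle/root cells was −0.0909 without that filter, −0.0721 without doublet removal and −0.0213 without mitochondrial genes. Leaving out 1 capture gave ranges of −0.0286 to 0.14 for Gpx4 and −0.10 to 0.35 for Sod1 in marginal, −0.22 to 0.0062 for Gpx4 and −0.0913 to 0.10 for Sod1 in intermediate, and −0.0102 to 0.52 for Gpx4 and −0.035 to 0.11 for Sod2 in spindle/root cells. The cause of these changes was not tested. Where 1 spindle/root sum was left, it was assumed to vary like the other types. Basal and spindle/root values rest on 66 and 28 cells, which limits small differences there most.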
